A study of Mus musculus with 4 samples.

Results

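The complement components and receptors described here are 9 genes of 32287 features measured in single cells of the mouse heart. They were picked by symbol from the feature list, which gives each of them 1 row: the components C3, C4b and C7, the C1 proteases C1ra and C1s1, their inhibitor Serping1, the receptors C3ar1 and C5ar1, and properdin, Cfp. RNA was read in 4 droplet libraries, 1 per group, from live nucleated cells sorted out of digested hearts. All 4 groups carried Tcf21-MerCreMer, in which tamoxifen switches on a Cre recombinase made from the locus of the fibroblast transcription factor TCF21, and all received tamoxifen. The 2 control libraries are labelled Tcf21-MerCreMer alone. The 2 other libraries are labelled Tcf21-MerCreMer:flox, a Cre together with a floxed allele, and are called deletion-labelled here. Of each pair, 1 heart library was made without injury and 1 at 3 days after myocardial infarction, a loss of blood supply that kills heart muscle. The labels give neither the number nor the age of the animals in a library.

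Complement is a cascade of blood and tissue proteins that marks microbes and damaged cells. In its classical pathway the protease C1r activates the protease C1s, which cleaves C4 and C2. The resulting enzyme cleaves C3, and the terminal components, C7 among them, build a pore in the target membrane. The fragments C3a and C5a call in and activate leukocytes through their receptors. Serping1 encodes the C1 inhibitor, which stops C1r and C1s, and properdin stabilises the C3-cleaving enzyme of the alternative pathway. Most circulating complement comes from the liver, while fibroblasts and macrophages of many tissues make components locally.

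The libraries held between 55710468 and 129704045 UMIs, that is distinct RNA molecules. After filters and doublet removal 8289 to 10142 cells per library were kept, 37003 in all, of which 122 carried a barcode found in more than 1 library. Cells were clustered without any complement gene, so no level of a complement gene was used to define a class. Levels are UMIs per 1000000 UMIs (CPM) of the summed cells of a class in a library, with exact 95% Poisson intervals. Differences are log2 ratios of CPM with exact 95% intervals given the sum of both counts. The intervals measure counting error alone: with 1 library per group the spread between animals is unknown, no test was run, and no p-value is given. A gene is called higher or lower when its CPM differed by at least 1.5-fold with at least 10 UMIs in 1 of the 2 sums, which is a rule of size. Tcf21, read here from the labels as the floxed gene, stood in fibroblasts at 95.5 CPM in the control and 147 CPM in the deletion-labelled library without infarction. After infarction it stood at 22.4 and 32.5 CPM. It was thus not lower in the libraries called deletion-labelled. The labels do not say which exons are floxed, so reads from the 3' end of the transcript do not check the deletion. The feature eGFP, a reporter sequence that the library titles do not name, was also counted in fibroblasts. It stood at 631 CPM in the control and 347 CPM in the deletion-labelled library without infarction, and at 1378 and 700 CPM after infarction.

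Fibroblasts without injury fell into a resident cluster of 1860 control and 1959 deletion-labelled cells. After infarction the control library held 21 resident and 956 activated fibroblasts, and the deletion-labelled library 481 resident and 1002 activated ones. These 2 names were given from the marker lists, so the marker levels describe the classes and do not test them. The 12 resident-fibroblast markers summed to between 20441 and 28726 CPM in resident fibroblasts and to 575 and 1319 CPM in activated ones. The 12 activation markers summed to 8397 and 9672 CPM in activated fibroblasts and to between 463 and 2080 CPM in resident ones. Macrophages were of the resident kind without infarction and of an infarct kind after it, with 1514 control and 1294 deletion-labelled cells. Classes under 50 cells in a library enter no comparison.

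The members divided mainly between stromal cells and leukocytes. C3, C7, C1ra, C1s1 and Serping1 were highest in resident fibroblasts, except that C1s1 was higher in the mural cells of 1 library. C3ar1 was highest in macrophages, C5ar1 in neutrophils, classical monocytes and macrophages, and Cfp in phagocytes. C4b was shared between resident fibroblasts and macrophages. Without infarction the fibroblasts held 97.3% of all C3 UMIs of the control library and 95.9% of those of the deletion-labelled library. After infarction that share was 34.4% and 69.5%. The rest lay mainly in mononuclear phagocytes, with 45.7% and 21.4%, and in neutrophils, with 18.6% and 7.89%.

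**Figure D1:**
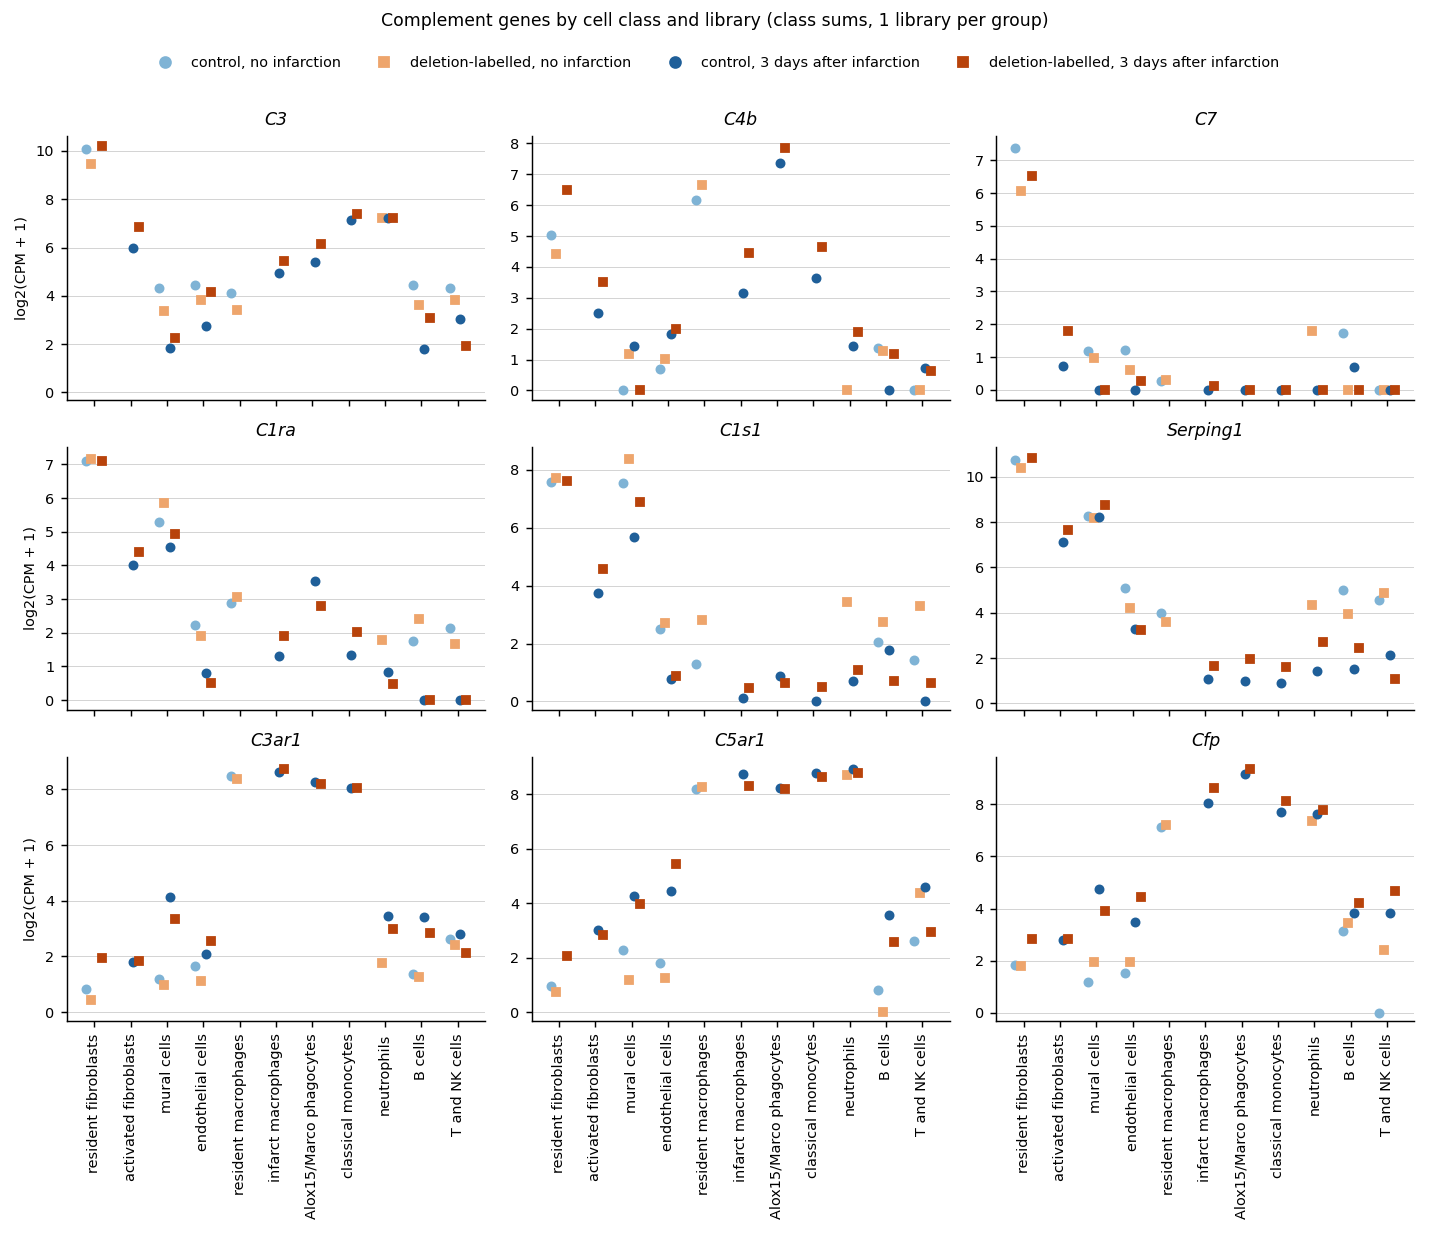
Each panel plots 1 gene as log2(CPM + 1) of the summed cells of a class (x axis), with 1 point per library of at least 50 cells. The 6 genes of the upper rows are high in resident fibroblasts, C4b also in macrophages, and C3 also in neutrophils and classical monocytes; C3ar1, C5ar1 and Cfp are highest in leukocyte classes.

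The genes lie apart in the genome except for C1ra and C1s1. On mm10, C3 (ENSMUSG00000024164) spans chr17:57203970-57228136 on the minus strand, and C4b (ENSMUSG00000073418) lies on the same strand of that chromosome at chr17:34728380-34743882. C7 (ENSMUSG00000079105) lies at chr15:4988762-5063740, minus strand. C1ra (ENSMUSG00000055172), at chr6:124512405-124523443 on the plus strand, and C1s1 (ENSMUSG00000038521), at chr6:124530345-124542359 on the minus strand, face each other with their 3' ends 6901 bases apart. C3ar1 (ENSMUSG00000040552) is on the same chromosome at chr6:122847138-122856161, minus strand. Serping1 (ENSMUSG00000023224) lies at chr2:84765387-84775444, C5ar1 (ENSMUSG00000049130) at chr7:16246743-16259540 and Cfp (ENSMUSG00000001128) at chrX:20925454-20931555, all on the minus strand. All 9 are annotated as protein-coding.

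The promoters of C3, C7 and C1s1 are shown as examples of the genes of resident fibroblasts that were far lower in activated fibroblasts. C4b, C1ra and Serping1 were lower there as well. The RefSeq promoter table for GRCm38.p6 matched 7 of the 9 members and lacked C4b and Serping1. Each sequence holds the 250 bases before a RefSeq start, 5' to 3' on the gene's own strand, which is the minus strand for all 3. They are C3 at chr17:57228137-57228386, C7 at chr15:5063774-5064023 and C1s1 at chr6:124542360-124542609. For C7, unlike the others, the bases after this start were not found near the start of an annotated transcript. Capitals mark matches to TTNNGNAA, a simple form of the C/EBP motif, and in C7 also 1 match to TTCNNNGAA, the STAT motif known as GAS, searched on both strands.
C3: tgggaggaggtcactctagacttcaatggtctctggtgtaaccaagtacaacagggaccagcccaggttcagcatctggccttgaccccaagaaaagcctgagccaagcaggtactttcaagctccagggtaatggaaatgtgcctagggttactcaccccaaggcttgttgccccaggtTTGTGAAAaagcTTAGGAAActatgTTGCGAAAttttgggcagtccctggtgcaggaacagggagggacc
C7: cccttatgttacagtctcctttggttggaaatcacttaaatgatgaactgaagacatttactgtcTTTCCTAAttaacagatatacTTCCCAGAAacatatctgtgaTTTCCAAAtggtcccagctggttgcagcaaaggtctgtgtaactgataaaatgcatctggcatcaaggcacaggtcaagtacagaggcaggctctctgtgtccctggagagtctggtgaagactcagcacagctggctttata
C1s1: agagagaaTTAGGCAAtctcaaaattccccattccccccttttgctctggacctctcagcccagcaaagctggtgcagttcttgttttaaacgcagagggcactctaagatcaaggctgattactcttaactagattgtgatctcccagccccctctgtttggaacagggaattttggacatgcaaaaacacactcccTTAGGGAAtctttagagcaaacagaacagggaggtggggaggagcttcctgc
C3 held 3 C/EBP matches, 70, 58 and 45 bases before the start, C7 held 2 and C1s1 held 2. RefSeq gives C1s1 another start, and the sequence before it, chr6:124542322-124542571, held 1 match, 90 bases before that start. At least 1 such match was found in 36.8% of all 32851 promoters of this length, and a GAS match in 7.02%. The E-box CANNTG, the motif family of TCF21, matched 1 time in C3, 4 times in C7 and not in C1s1, and was found in 66.2% of promoters. The promoter of C1ra, searched but not shown, held 2 C/EBP and 3 E-box matches. None of the 3 promoters shown held the core of the interferon response element (2.98% of promoters) or an NF-kB motif (7.25%). A match describes letters and is not evidence of binding.

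Without infarction, the fibroblasts of the deletion-labelled library had less C3, C4b and C7 RNA than those of the control, and near-equal C1ra and C1s1. C7, a terminal pore component, stood at 162 CPM (157 to 168) in the control and 65.8 CPM (62.8 to 69.0) in the deletion-labelled library, a log2 ratio of -1.30 (-1.38 to -1.22). C3, on which all complement pathways converge, stood at 1093 CPM (1079 to 1108) and 700.3 CPM (690.4 to 710.3), a log2 ratio of -0.64. C4b, which C1s cleaves, stood at 31.4 and 20.2 CPM, also at -0.64. The C3 and C4b differences lie just past the 1.5-fold limit. Serping1 stood at 1697 and 1345 CPM, inside that limit at -0.34. C1ra was at 136 and 143 CPM and C1s1 at 191 and 210.4 CPM, with log2 ratios of 0.07 and 0.14. Of the 9 members 0 were called higher and 4 lower. Their median ratio was -0.43 (log2), against -0.02 over all 14288 genes counted. Among all genes, 9.32% were higher and 7.31% lower. The fourth member called lower, C3ar1, had 10 and 16 UMIs and stood under 0.1 of its macrophage level in both libraries, so its UMIs may be free RNA, and with doublets kept its ratio was 0.42. Resident fibroblasts alone gave the same count, 0 higher and 4 lower, beside 9.39% and 7.24% of all genes. Markers of mononuclear phagocytes summed to 48.7 CPM in control and 43.3 CPM in deletion-labelled fibroblasts, with 4 of 8 called lower. Of the 7 epicardial markers, all had UMIs in the control fibroblasts and 3 in the deletion-labelled ones, with sums of 5.91 and 1.10 CPM. Red blood cell markers summed to 8.43 and 70.6 CPM. The part of any of these in these differences was not tested.

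After infarction the components of the control fibroblasts were lower. Relative to the control library without infarction, C7 was at 0.884 CPM (28 UMIs) against 162 CPM, a log2 ratio of -7.52 (-8.11 to -6.99). C3 was at 66.2 against 1093 CPM, a log2 ratio of -4.04. C1s1 followed with -3.84, Serping1 with -3.50, C1ra with -3.11 and C4b with -2.61. In this comparison 26.1% of 14885 genes were called higher and 39.5% lower, and of the members 3 were higher and 6 lower. The 3 called higher were C3ar1, C5ar1 and Cfp, at 2.56, 7.23 and 6.03 CPM after infarction, each under 0.1 of its level in a leukocyte class. Markers of mononuclear phagocytes in these fibroblast sums stood at 48.7 CPM without and 117 CPM after infarction, and their part was not tested. Resident cells were 1860 of the 1872 control fibroblasts without infarction and 21 of the 977 after it. The part of this change of kind was not tested either.

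In the deletion-labelled fibroblasts the same step after infarction was smaller for every component. C3 stood at 289.6 CPM after infarction against 700.3 CPM without, a log2 ratio of -1.27. C7 was at 17.2 against 65.8 CPM (-1.93), C1ra at -1.84, C1s1 at -2.03 and Serping1 at -1.50. C4b did not pass the limit, with 23.8 against 20.2 CPM and a log2 ratio of 0.24 (0.08 to 0.39). Of the members 3 were called higher, again C3ar1, C5ar1 and Cfp at levels that may be free RNA, and 5 lower, beside 21.7% and 32.5% of 15219 genes. The control and deletion-labelled steps share no library, but with 1 library in each group the difference between them was not tested. Resident cells were 1959 of the 1961 deletion-labelled fibroblasts without infarction and 481 of the 1483 after it. The control and deletion-labelled steps thus compare unlike mixtures of resident and activated cells, and the part of this was not tested.

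The direct comparison after infarction put all 6 locally made genes higher in the deletion-labelled fibroblasts. C7 was at 17.2 CPM (617 UMIs) against 0.884 CPM (28 UMIs), a log2 ratio of 4.28 (3.74 to 4.89). C4b was at 23.8 against 5.15 CPM (2.21, 1.97 to 2.46) and C3 at 289.6 against 66.2 CPM (2.13, 2.06 to 2.20). C1s1 was at 51.4 against 13.3 CPM (1.95), Serping1 at 476 against 150.4 CPM (1.66) and C1ra at 39.9 against 15.8 CPM (1.34). C3ar1, C5ar1 and Cfp lay inside the limit, with log2 ratios of 0.02, -0.34 and 0.04. The count was 6 higher and 0 lower, beside 13.1% and 5.14% of 14916 genes. The median ratio was 1.66 (log2) against 0.04 over all genes. All 12 resident-fibroblast markers were higher too, with a median log2 ratio of 2.92, while 1 of the 12 activation markers was higher, with a median of 0.02. Markers of red blood cells summed to 0.726 CPM in the control and 164 CPM in the deletion-labelled fibroblasts, and those of mononuclear phagocytes to 117 and 109 CPM. The part of these in the complement values was not tested.

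**Figure D2:**
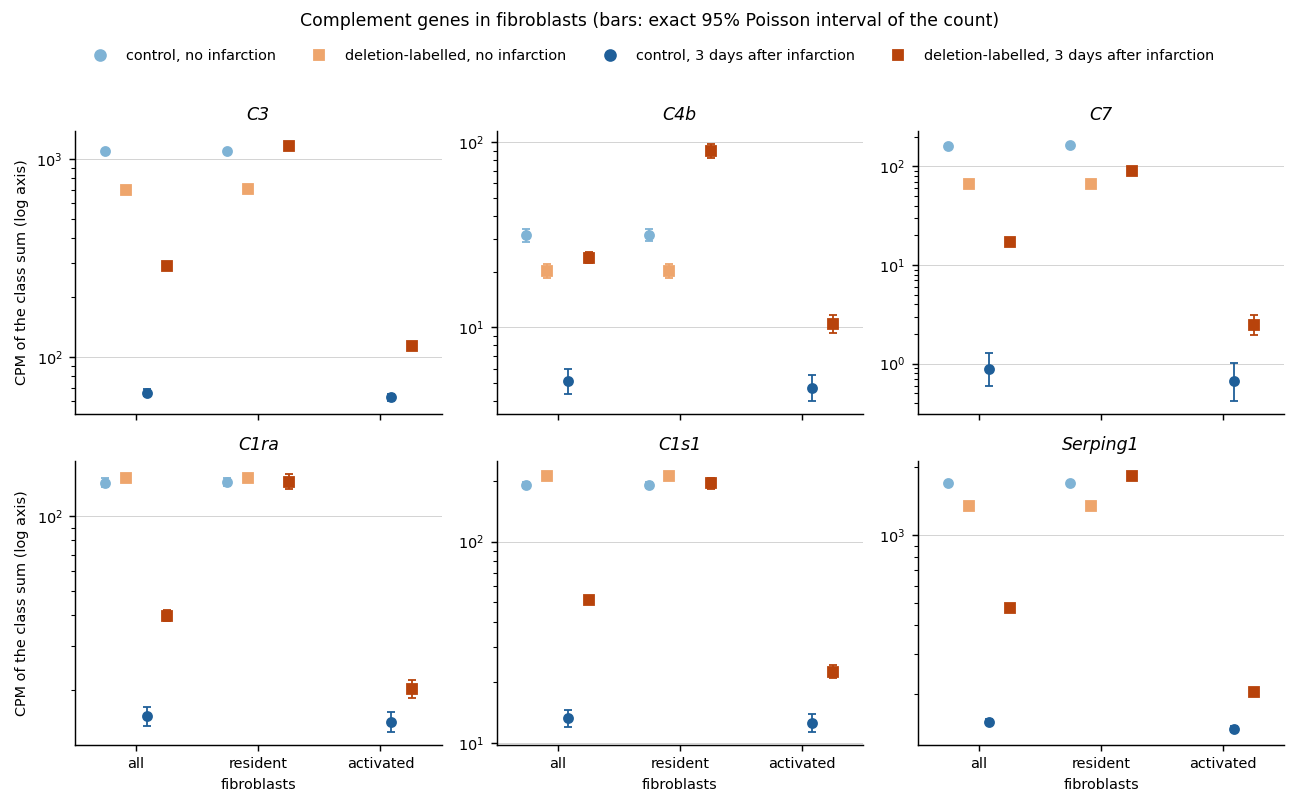
Each panel plots 1 gene as CPM on a log axis in all, resident and activated fibroblasts (x axis), with 1 point per library of at least 50 cells and exact 95% Poisson intervals. The 6 genes are lower in activated than in resident fibroblasts of the same deletion-labelled infarction library, for C3 at 114 and 1163 CPM.

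These sums mix resident and activated cells in unequal shares, and the 2 kinds differed from each other in all 6 genes. Within the deletion-labelled infarction library, activated fibroblasts had 114 CPM of C3 and resident ones 1163 CPM, a log2 ratio of -3.36. The ratio was -5.19 for C7, -3.17 for Serping1, -3.10 for both C4b and C1s1, and -2.76 for C1ra. That made 6 members lower and 1 higher, C5ar1, at 6.24 and 3.16 CPM and possibly free RNA, beside 24.1% and 20.9% of 14339 genes. Resident cells were 481 of the 1483 fibroblasts of this library and 21 of the 977 of the control infarction library. After thinning every cell to 2000 UMIs, at least 1 C3 UMI was found in 59.7% of these resident and 15.6% of these activated fibroblasts, against 1.62% of B cells.

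Within activated fibroblasts alone, the difference after infarction was smaller and went the same way. C3 was at 114 CPM in the deletion-labelled and 62.6 CPM in the control library, a log2 ratio of 0.86 (0.78 to 0.94). C7 was at 2.48 and 0.671 CPM, from 74 and 21 UMIs (1.89, 1.17 to 2.66), C4b at 10.5 and 4.73 CPM (1.15) and C1s1 at 22.6 and 12.6 CPM (0.85). Serping1 at 203 and 139.8 CPM and C1ra at 20.3 and 14.98 CPM stayed inside the limit, with 0.54 and 0.44. The count was 4 higher and 0 lower, beside 8.33% and 4.19% of 14633 genes. C4b stood under 0.1 of its level in another class in both libraries. C7 was not marked so, since the 21 resident fibroblasts of the control infarction library, at 18.9 CPM, are too few for that rule. In the deletion-labelled infarction library C7 stood at 90.4 CPM in resident fibroblasts. The C7 of activated fibroblasts may thus be free RNA too. As a reading of free RNA, C3 was at 16.9 CPM in endothelial cells and 7.50 CPM in B cells of the deletion-labelled infarction library, and at 5.81 and 2.43 CPM in the control. The 12 resident-fibroblast markers were higher in the deletion-labelled activated cells as well, 10 of them past 1.5-fold with a median log2 ratio of 1.26. The part of such a difference in cell state was not tested.

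**Figure D3:**
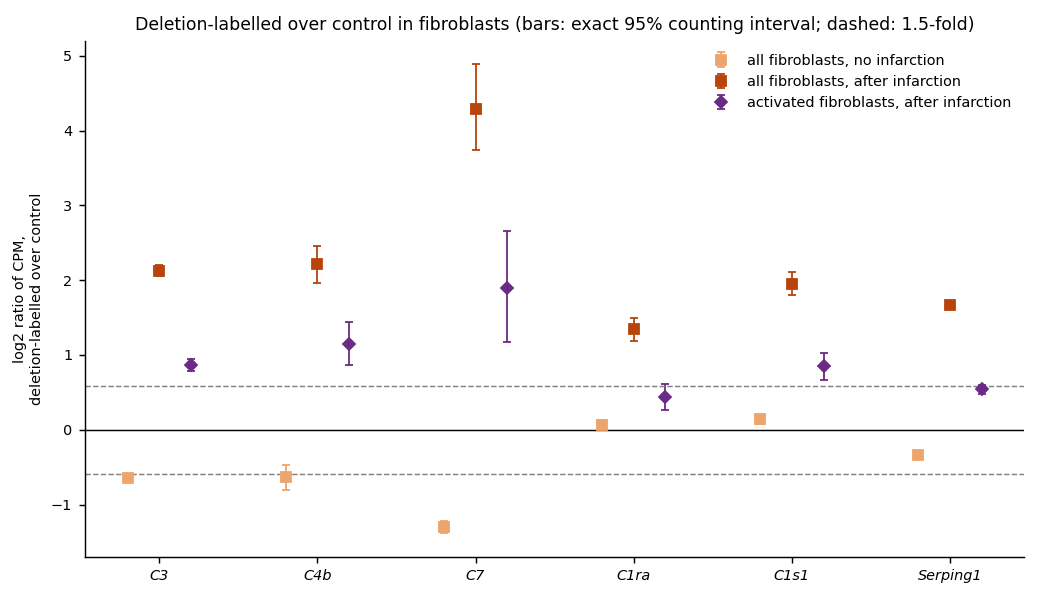
Log2 ratios of CPM, deletion-labelled over control, for 6 genes (x axis) in all fibroblasts without and after infarction and in activated fibroblasts after it. Bars are exact 95% counting intervals and dashed lines mark 1.5-fold; C3, C4b and C7 lie below 0 without infarction and above 0 after it.

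Resident fibroblasts of the deletion-labelled hearts had more C4b and C3 RNA after infarction than without it. In the deletion-labelled libraries C4b stood at 20.2 CPM (18.6 to 22.0) without and 89.9 CPM (82.5 to 97.8) after infarction, a log2 ratio of 2.15. C3 was at 701 and 1163 CPM (0.73). C7 at 65.9 and 90.4 CPM and Serping1 at 1346 and 1828 CPM stayed inside the limit, with 0.46 and 0.44, and C1ra and C1s1 differed by -0.06 and -0.12. The count was 5 higher and 0 lower, beside 7.35% and 15.6% of 14156 genes, and 3 of the 5 are C3ar1, C5ar1 and Cfp at up to 6.16 CPM. The 21 resident fibroblasts of the control infarction library, too few for a comparison, had 379 CPM of C3 (318 to 447), 40.6 CPM of C4b (22.7 to 66.9) and 18.9 CPM of C7 (7.61 to 39.0). Neutrophil markers summed to 460.1 CPM in the deletion-labelled resident fibroblasts without infarction and 495 CPM after it, with 6 of 7 higher. C5ar1, at 422 CPM or more in neutrophils, stood at 0.694 and 3.16 CPM in these fibroblasts, so the marker sum is not a measure of neutrophil RNA. Mononuclear phagocyte markers summed to 43.3 and 90.2 CPM, with 6 of 8 higher, and activation markers to 463 and 2080 CPM, with 9 of 12 higher. Their part in the C4b and C3 values was not tested.

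Resident fibroblasts were not uniform in complement genes. At a finer resolution they split into 4 clusters, named here by the leading genes Lrrc55, Cytl1, Inmt and Duox1. The Inmt cluster had the highest C3, C4b, C1ra, C1s1 and Serping1 in each of the 3 libraries with at least 50 resident fibroblasts. Its C3 stood at 1901 CPM in the control without infarction, 1381 CPM in the deletion-labelled library without and 2738 CPM in the deletion-labelled library after infarction. In the Cytl1 cluster those values were 453, 175 and 560.2 CPM. C7 had another order: in the control without infarction it was highest in the Duox1 cluster, at 259 CPM, and the Cytl1 cluster, at 242 CPM, and lowest in the Lrrc55 cluster, at 49.3 CPM.

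The lower C3 and C7 of the deletion-labelled library without infarction was found in every one of these 4 clusters, though not always past 1.5-fold. C7 log2 ratios ran from -1.84 in the Lrrc55 cluster to -0.69 in the Cytl1 cluster. C3 ratios ran from -1.37 in the Cytl1 cluster to -0.30 in the Duox1 cluster. C4b went both ways, with -1.09 in the Cytl1 cluster, -1.05 in the Lrrc55 cluster, -0.15 in the Inmt cluster and 1.94 in the Duox1 cluster, where it had 77 and 19 UMIs. After infarction C4b was higher than without it in all 4 clusters of the deletion-labelled hearts. Its ratios were 3.62 in the Lrrc55 cluster, 2.48 in the Cytl1 cluster, 2.12 in the Duox1 cluster and 1.44 in the Inmt cluster. C7 went both ways in this step, with 2.17 in the Lrrc55, 0.42 in the Inmt, 0.34 in the Duox1 and -1.12 in the Cytl1 cluster. The Lrrc55 cluster held 992 deletion-labelled cells without and 86 after infarction, and the Cytl1 cluster 302 and 209. The part of this shift in the resident sums was not tested. In the activated cluster, led by Sapcd2 and with the cell-division gene Bub1 among its leading genes, the genotype ratios after infarction were 0.80 for C3, 0.95 for C4b and 1.46 for C7. In a further fibroblast cluster with the stress gene Gdf15 among its leading genes, C3 was at 64.8 CPM in the deletion-labelled and 44.3 CPM in the control library (0.55).

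**Figure D4:**
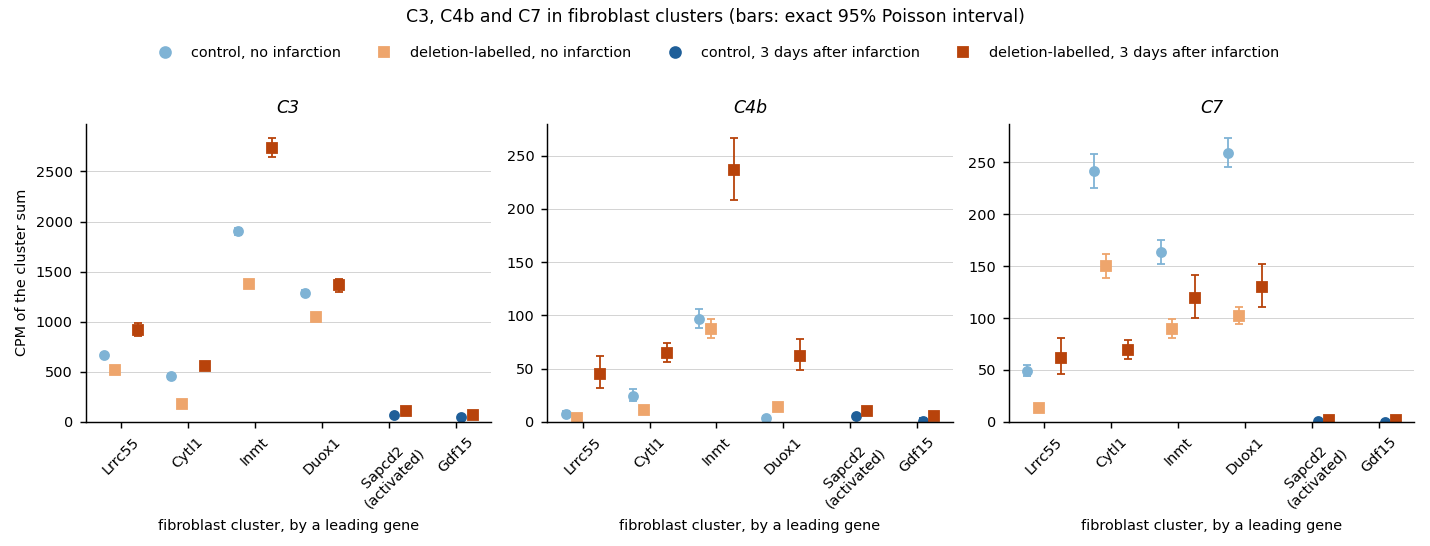
C3, C4b and C7 as CPM (y axis) in fibroblast clusters at the finer resolution, each named by a leading gene, with 1 point per library of at least 50 cells and exact 95% Poisson intervals. C3 and C4b are highest in the Inmt cluster; C3 and C7 are lower in the Sapcd2 and Gdf15 clusters than in any of the other 4, while C4b overlaps with the Duox1 and Lrrc55 clusters.

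C1ra, C1s1 and C4b have near-identical copies in the mouse genome, and their counts carry an uncertainty from it. Of the 50-base windows in the last 500 bases of the longest transcript, 19.1% of those of C1ra also occur in C1rb, 18.0% of those of C1s1 in C1s2 and 38.1% of those of C4b in C4a. The copies drew few UMIs in 3 of the 4 libraries. C1rb had 3 and 6 UMIs without infarction and 1 in the deletion-labelled library after it, while C1ra had 2908, 4239 and 1640. In the control infarction library C1rb had 102 UMIs beside 670 of C1ra, or 13.2% of the pair. C1s2 had 33 UMIs beside 501 of C1s1 there, or 6.18%, and between 2 and 6 UMIs in each other library. Most of these UMIs were in fibroblasts, 82 for C1rb and 24 for C1s2. The control infarction library thus stood apart in how its reads divided between the copies. With the copies added, the deletion-labelled over control ratio in fibroblasts after infarction was 1.12 for C1ra and 1.87 for C1s1, in place of 1.34 and 1.95. This addition was chosen after seeing the data, and it changed none of the 24 calls it was applied to.

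Mural cells, the pericytes and smooth muscle of vessel walls, were the other stromal class with C1s1, C1ra and Serping1. C1s1 stood at 186 CPM (157 to 219) in the control and 333 CPM (313 to 354) in the deletion-labelled library without infarction, and the ratio was 0.84 (log2, 0.59 to 1.10). After infarction C1s1 was at 49.998 CPM (37.97 to 64.6) and 119 CPM (104 to 136), a log2 ratio of 1.25 (0.83 to 1.69). It was thus lower after infarction in both genotypes, with log2 ratios of -1.90 in the control and -1.48 in the deletion-labelled libraries. Serping1 was steadier, with 307 and 289 CPM without and 297 and 427 CPM after infarction, control first. C1ra ranged from 22.4 to 57.1 CPM. C3, C4b and C7 were at most at 19.3 CPM in mural cells, under 0.1 of the resident fibroblast level without infarction. Of the 538 mural cells in the deletion-labelled library without infarction 113 lay in a second mural cluster, against 6 of 193 in the control, and the part of that in the C1s1 values was not tested.

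Among leukocytes, C3 RNA was highest in classical monocytes and neutrophils. The 58 nonclassical monocytes of the deletion-labelled infarction library, the 1 library with enough of them, had 121 CPM (89.6 to 159). Neutrophils had 149 CPM (114 to 191) in the deletion-labelled library without infarction, 147 CPM (139 to 156) in the control after it and 149.7 CPM (141 to 159) in the deletion-labelled library after it. These values overlapped within counting error, although 100 of the 102 neutrophils without infarction and only 481 of 3396 and 858 of 3297 after it came from 1 of the 2 neutrophil clusters. Within the fine cluster led by Ly6g and Retnlg, which held 98 of the neutrophils without infarction, C3 was at 153 CPM (117 to 197) without infarction. There it was at 83.8 CPM (66.6 to 104) in the control and 116 CPM (100.4 to 133) in the deletion-labelled library after it, a genotype ratio of 0.46 (log2, 0.09 to 0.85), inside the 1.5-fold limit. In the other 4 fine neutrophil clusters the genotype ratio of C3 lay between -0.08 and 0.19. The share of neutrophils with a C3 UMI at 2000 UMIs per cell was 24.2%, 21.6% and 22.5% in the same order, against 0.464% to 3.55% of B cells. Classical monocytes had 139 CPM in the control and 165 CPM in the deletion-labelled infarction library, with 22.7% and 27.5% of thinned cells. The phagocytes led by Alox15 and Marco had 41.2 and 69.0 CPM. Macrophages had less, at 16.2 and 10.5 CPM without and 29.7 and 41.7 CPM after infarction, control first. Among neutrophils after infarction 6 members were counted, and 2 were called higher in the deletion-labelled library and 0 lower, beside 7.97% and 8.64% of 11321 genes. These were C4b, with 21 and 13 UMIs, and Serping1, with 44 and 13, both possibly free RNA.

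C3ar1, the receptor for C3a, was a macrophage gene with little variation between libraries. Macrophages had 359 CPM in the control and 329.7 CPM in the deletion-labelled library without infarction, and 394 and 428 CPM after it. The genotype ratios were -0.12 and 0.12. Classical monocytes had 262 and 267 CPM, and neutrophils at most 9.98 CPM. Of all C3ar1 UMIs after infarction, infarct macrophages held 65.3% in the control and 67.3% in the deletion-labelled library.

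C5ar1, the receptor for C5a, had a broader range. It stood at 484 CPM in control and 439 CPM in deletion-labelled neutrophils after infarction, at 440.2 and 397 CPM in classical monocytes and at 425 and 316 CPM in macrophages. The macrophage log2 ratio was -0.43 (-0.47 to -0.39), inside the 1.5-fold limit. In cycling phagocytes, a cluster led by histone genes and Top2a, C5ar1 was at 226 CPM in the control and 121 CPM in the deletion-labelled library. Without infarction, macrophages had 293 and 308 CPM.

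Cfp, which encodes properdin, was higher in macrophages after infarction in both genotypes. In the control it stood at 137 CPM (127 to 148) without and 268 CPM (262 to 273) after infarction, a log2 ratio of 0.96 (0.85 to 1.08). In the deletion-labelled libraries it stood at 146 and 391 CPM, a ratio of 1.42 (1.31 to 1.54). These macrophages were almost all of the resident kind without infarction and of the infarct kind after it, and the part of that was not tested. The genotype ratio after infarction was 0.55 (0.51 to 0.59), just inside the limit. Some other infarct clusters had more. A phagocyte cluster led by Alox15 and Marco, cluster 25, had 579.6 and 650.1 CPM, control first, and an unnamed cluster led by Cd209a and Flt3 had 505 and 555 CPM. Cycling phagocytes had 360.1 and 431 CPM, and dendritic cells 375 and 308 CPM, the latter under the macrophages of its library. Neutrophils had between 164 and 221 CPM.

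C4b had unlike levels in the kinds of macrophage. Resident macrophages had 71.1 CPM (63.8 to 79.0) in the control and 100.4 CPM (91.3 to 110.2) in the deletion-labelled library without infarction. Infarct macrophages had 7.95 CPM (6.997 to 8.99) and 21.0 CPM (19.3 to 22.7). The cluster led by Alox15 and Marco had 164 CPM (154 to 175) and 228 CPM (215 to 241) and held 61.6% and 40.6% of all C4b UMIs of the 2 infarction libraries. It had 317 control and 241 deletion-labelled cells after infarction, and 1 cell without. The 33 Schwann cells of the deletion-labelled library without infarction, too few for a comparison, had 207 CPM of C4b (156 to 269) from 56 UMIs. Over macrophages, the deletion-labelled to control ratio of C4b after infarction was 1.42 (1.21 to 1.64), and in classical monocytes it was 1.05 (0.73 to 1.39). In both macrophage sums C4b was under 0.1 of its level in that cluster. The 8 resident-macrophage markers were higher as well in the deletion-labelled macrophages, 6 of them past 1.5-fold with a median log2 ratio of 1.002, and their part was not tested.

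**Figure D5:**
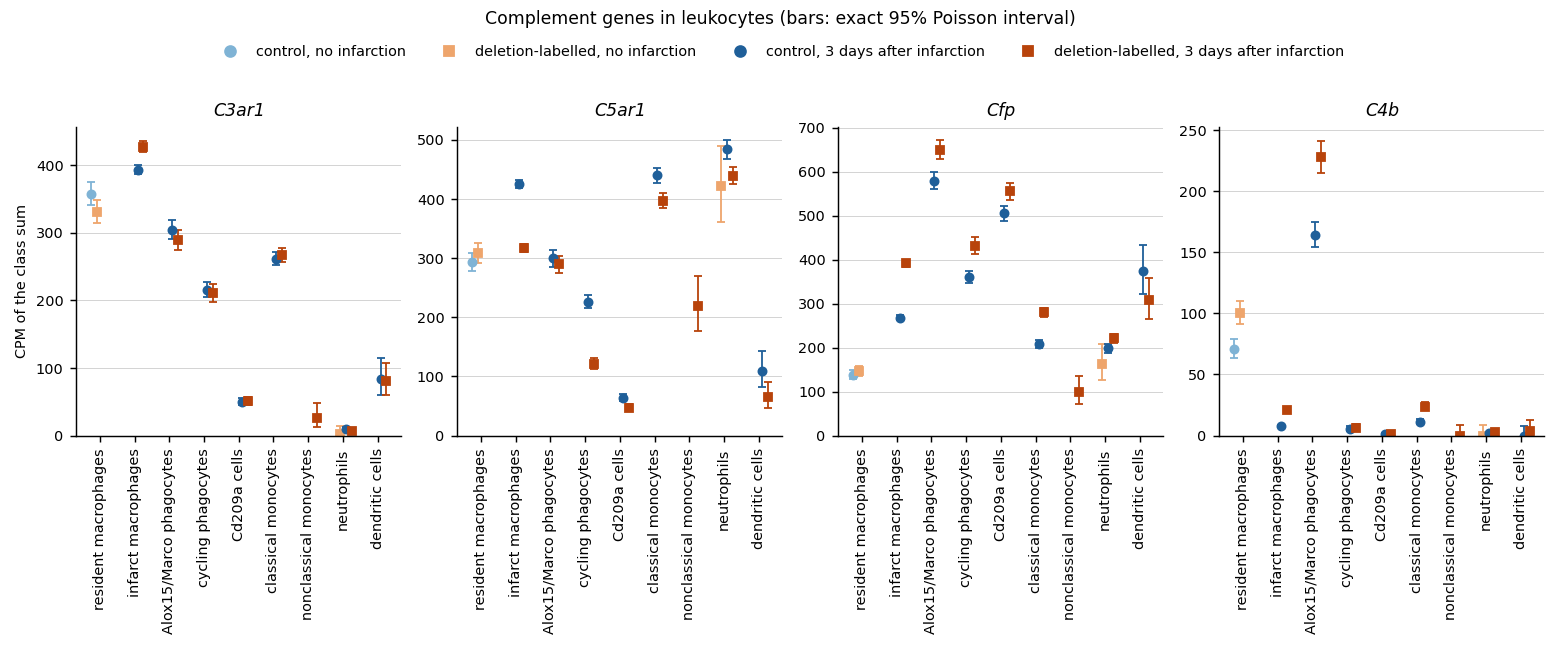
C3ar1, C5ar1, Cfp and C4b as CPM (y axis) in leukocyte classes and clusters (x axis), with 1 point per library of at least 50 cells and exact 95% Poisson intervals. C4b is high in resident macrophages and the Alox15/Marco phagocytes, where the deletion-labelled library stands at 228 CPM, and lower in the other classes drawn.

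Of the 8 members counted in macrophages, 4 were higher and 0 lower in the deletion-labelled library after infarction, beside 11.2% and 3.43% of 12889 genes. Besides C4b these were C1ra, C1s1 and Serping1, all under 3 CPM and possibly free RNA. For the control after infarction against the control without, 7 members were counted, with 2 higher, C3 and Cfp, and 3 lower, C4b and, possibly free RNA, C1ra and Serping1, beside 18.5% and 44.9% of 12931 genes. With a mitochondrial limit of 10% the C3 ratio was -0.0070, which ends its call. The C3 of control macrophages without infarction, at 16.2 CPM, was below the 21.0 CPM of endothelial cells of that library. That value may be free RNA, although the rule, which needs both libraries, did not mark it. Without infarction 8 were counted and 1 was higher, C1s1 with 27 and 8 UMIs, and 1 lower, C3 with 47 and 79 UMIs, both possibly free RNA, beside 8.98% and 9.32% of 11588 genes. In the deletion-labelled libraries, infarction against none gave 2 higher and 4 lower of 8 counted, beside 18.8% and 36.0% of 12867 genes. Of these, Cfp, higher, and C4b, lower, were not marked as possible free RNA. In classical monocytes after infarction 7 members were counted and 3 were higher and 0 lower in the deletion-labelled library, beside 7.56% and 4.19% of 11096 genes, and C4b was the one of them not marked as possible free RNA.

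The other complement genes were taken as a list of 48. Cd55, a membrane regulator that dissociates the C3-cleaving enzymes, had 19.5 CPM in control and 60.6 CPM in deletion-labelled fibroblasts after infarction, a log2 ratio of 1.64. The scavenger receptor Colec12 stood at 90.4 and 121 CPM there (0.42). Over the list, 27 genes were counted without infarction, 4 of them higher and 5 lower, and the median ratio was -0.02 (log2). Over all genes 9.32% were higher and 7.31% lower. After infarction 32 were counted, 9 of them higher and 6 lower, with a median of 0.09, beside 13.1% and 5.14% of all genes. In activated fibroblasts 6 of 32 were higher and 7 lower, beside 8.33% and 4.19%.

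In macrophages the chains of C1q, which starts the classical pathway, were the highest of the other complement genes. C1qb stood at 1890 CPM in control and 1141 CPM in deletion-labelled macrophages after infarction, a log2 ratio of -0.73 (-0.75 to -0.71), the opposite direction to C4b. C1qa at 1391 and 1122 CPM and C1qc at 799 and 622 CPM, control first, stayed inside the 1.5-fold limit, with -0.31 and -0.36. Resident macrophages had 4483 and 4321 CPM of C1qb without infarction. Vsig4, a macrophage receptor for C3 fragments, was at 67.5 CPM in control macrophages without and 0.691 CPM after infarction, a log2 ratio of -6.61. These sums held 518 resident macrophages among 522 cells without infarction and 1514 infarct macrophages after it. The part of this change of kind in the ratio was not tested. Of the list, 24 genes were counted between the genotypes after infarction, with 5 higher and 3 lower, beside 11.2% and 3.43% of all genes. Between the control libraries 26 were counted, with 6 higher and 15 lower, beside 18.5% and 44.9%.

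Over 44 sums of a class in a library, the 9 genes fell into groups of like profile by the Pearson correlation of log2(CPM + 1). The values below are descriptions, since the sums share libraries and depth. C1s1 and Serping1 had r = 0.90, C1ra and Serping1 0.88, C5ar1 and Cfp 0.87, and C1ra and C1s1 0.86. C4b had its highest value with C3ar1, at 0.51, and C3 with C7, at 0.68. Outside the complement list, the gene most like C7 was Vit (r = 0.96), that most like Serping1 was Gas1 (0.97), and that most like C1s1 was C1qtnf2 (0.96). For C3 it was Igfbp6 (0.90), for C1ra Ntn4 (0.90) and for C4b Calml4 (0.81). For C3ar1 it was Trem2 (0.96), for C5ar1 Fcgr3 (0.98) and for Cfp Wfdc17 (0.94).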

How the data were processed

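Cells from 4 heart libraries were read with 10x 3' v3.1 chemistry. The deposited matrices hold UMI counts per gene and barcode, made with Cell Ranger 5.0.1 on mm10, per the submitters' processing notes. The members and all gene lists were chosen with earlier results of these data known. Barcodes with at least 500 UMIs, 200 genes and at most 20% mitochondrial UMIs were kept. Doublets were scored, by a routine written for this work, as the share of simulated doublets among a cell's nearest neighbours, and the highest-scoring cells were removed at an assumed rate of 0.8% per 1000 barcodes. Cells were clustered with scanpy 1.11.5 (2000 variable genes, 30 components, 20 neighbours, Leiden resolution 1, igraph 0.11.9, scikit-learn 1.9.0) with 57 complement genes left out. Of 26 clusters 23 were named from marker lists, needing at least 3 detected markers. Resident and activated subclasses needed a marker score and a lead of 0.1, set after seeing the data. UMIs were summed by class and library in classes of at least 50 cells. CPM, ratios and exact 95% intervals were computed with scipy 1.17.1 and numpy 2.4.6, and a sum of 0 or under 3 UMIs was set to 3 UMIs for a ratio. Shares of cells were taken after thinning to 2000 UMIs per cell. A value was marked as possible free RNA when its CPM was under 0.1 of the highest class of the same library, in both libraries. All 9 members are described. Of the other complement genes the text names at most the 3 with the largest ratio each way per comparison and the 3 highest per class. A result that this rule would name is not reported here. For likeness it names the gene with the highest correlation. The ratio method was tested on simulated data. Alternatives changed the doublet, mitochondrial, resolution, scaling, UMI-minimum, fold and clustering-gene choices; the sum with near-identical copies was added after seeing the data. Promoters and their motifs come from RefSeq, GRCm38.p6.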

Additional observations from a re-analysis of the deposited data

Results flagged for a closer look

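Several genotype ratios (log2, deletion-labelled over control) had opposite signs without and after infarction. With 1 library per group this difference was not tested. In fibroblasts the ratio of C3 was -0.64 without and 2.13 after infarction, that of C4b -0.64 and 2.21, that of C7 -1.30 and 4.28, and that of Serping1 -0.34 and 1.66. These fibroblasts were almost all resident without infarction. After it 21 of 977 control and 481 of 1483 deletion-labelled ones were resident. Within activated fibroblasts after infarction the ratios were smaller, in the same order 0.86, 1.15, 1.89 and 0.54. The part of the unequal mixture was not tested. In macrophages C3 had -0.63 without and 0.49 after infarction, and C3ar1 had -0.12 and 0.12. The C3 value without infarction rests on 47 and 79 UMIs and may be free RNA. In endothelial cells C3 had -0.68 and 1.54, and C5ar1 had -0.87 and 1.01. The endothelial values were under 0.1 of the level in another class of the same library and may be free RNA.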

How the results depend on the processing

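Over 75 member ratios, 510 alternative values were computed. The 46 called members had 313 of them, of which 306 kept their direction and stayed past 1.5-fold and 3 changed sign. These were C3ar1 in fibroblasts without infarction, at 0.42 with doublets kept, the same gene in resident fibroblasts there, at 0.36, and C3 in control macrophages after against without infarction, at -0.0070 with a mitochondrial limit of 10%. Without changing sign, 18 of the 46 called ratios moved outside their counting interval with the mean of CPM per cell. With median of ratios scaling 15 did so, and with doublets kept 8. At 2-fold, 2 members were lower in fibroblasts and 2 in resident fibroblasts without infarction. Between genotypes after infarction, 2 were then higher in activated fibroblasts, 2 in macrophages and 1 in neutrophils, and 0 were higher in control macrophages after against without infarction. With the mean of CPM per cell, 1 member was lower in the deletion-labelled library after infarction in each of fibroblasts and activated fibroblasts (C5ar1) and neutrophils (C3ar1). In control macrophages after against without infarction, 1 member was higher at the mitochondrial limit of 10%, and 5 were lower with no minimum of UMIs. In neutrophils 1 member was higher with doublets kept and 1 with a minimum of 30 UMIs, and 1 was lower with no minimum. The cause was not tested. The alternatives at Leiden resolution 0.5 were not run for the genotypes after infarction and for the control libraries in macrophages. No paired analysis was possible because there is a single library in every group. Depth limits C7 in activated fibroblasts, with 21 UMIs in the control library, and the members with few UMIs in macrophages and neutrophils.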

Other observations

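Erythroid markers differed between the infarction libraries in the fibroblast sums, with 0.726 CPM in the control and 164 CPM in the deletion-labelled library, and were at 8.43 and 70.6 CPM without infarction. The 12 fibroblasts of the control library without infarction that fell into the activated cluster had 1065 CPM of C3 (923 to 1222), near the resident level of that library. The 12 resident macrophages of the deletion-labelled infarction library had 95.7 CPM of C4b (47.8 to 171) from 11 UMIs.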
